A study of Mus musculus with 2 samples.

Results

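The 4 genes that encode the chains of the interferon gamma and type I interferon receptors, Ifngr1, Ifngr2, Ifnar1 and Ifnar2, were examined for binding of the transcription factor HLF (hepatic leukemia factor, of the PAR bZIP family). The regions described are the peaks whose centre lay inside one of these genes or within 100 kb of one of its ends, which gave 8 of the 3153 peaks in the list, 6 around Ifngr1 and 2 around the other receptor genes. The genes were selected from these same peaks, Ifngr1 for its 5 peaks by nearest gene end, so the counts are a description and carry no test. Chromatin came from wild-type mouse Lin-Sca-1+c-Kit+ (LSK) cells, the marrow fraction that holds stem cells and multipotent progenitors. The cells were infected with pMX-3xFLAG-Hlf/Hlf-IRES-GFP, a retrovirus that adds FLAG-tagged Hlf to whatever the cells make themselves, or with the pMX-GFP control virus. Both arms were kept for 5 days in OP9 medium with SCF, IL-7, Flt3L and IL-3, then crosslinked, and DNA pulled down with an antibody to FLAG was sequenced (ChIP-seq). Each arm was 1 library. Only the FLAG-HLF peak list was used here, so the arms were not compared and no value has a replicate check. The list has positions of 400-base intervals and no read counts, so the depth behind a peak is unknown. No expression was measured, so the identity of the cells after culture was not checked against markers.

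Interferon gamma binds IFNGR1, the ligand-binding chain, which signals together with IFNGR2. Type I interferons bind a receptor made of IFNAR1 and IFNAR2. The chains carry the kinases JAK1, JAK2 and TYK2, which phosphorylate STAT factors that enter the nucleus and switch on interferon-induced genes, and SOCS proteins and phosphatases turn the signal down. In the blood system interferons are known to drive quiescent stem cells into cycle, and Sca-1, a marker of the LSK gate, is itself interferon-induced.

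At Ifngr1 (chromosome 10, 19591949 to 19610229, plus strand, mm10), 1 peak sat just before the transcription start. It covered chr10:19591321-19591720, which is position -628 to -229 relative to the start, with its centre 0.429 kb upstream. None of the other 3 receptor genes had a peak within 1 kb of its start. Among 17492 coding genes with a start site in the RefSeq promoter table, 1.72% had a peak centre that close. The RefSeq window of 250 bases before to 50 after a start is given for Ifngr1 (chr10:19591699-19591998, plus strand, GRCm38.p6), with the 22 bases under the peak in capitals, because it shows how little of the core promoter the interval reached.

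Ifngr1: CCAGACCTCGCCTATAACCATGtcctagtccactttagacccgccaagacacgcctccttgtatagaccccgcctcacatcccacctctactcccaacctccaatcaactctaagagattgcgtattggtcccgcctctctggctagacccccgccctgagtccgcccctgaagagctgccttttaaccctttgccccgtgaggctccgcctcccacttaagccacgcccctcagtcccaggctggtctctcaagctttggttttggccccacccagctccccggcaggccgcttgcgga

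The peak therefore lay over the sequence upstream of this window. Of the 4 receptor genes, Ifngr1 alone had a promoter window touched by a peak, against 0.949% of the 17492 coding genes. The Ifngr1 window was 60.3% G or C, against a median of 52.7% over all 32851 windows of the table. No match was found in it, on either strand, to the PAR bZIP letters TTATGTAA or TTACGTAA, to the C/EBP letters TTGCNNAA (which include TTGCGCAA), to TTCNNNGAA (the site of STAT dimers) or to TTTCNNTTT (part of the interferon-stimulated response element). The other 3 windows held none of these apart from 1 match to TTCNNNGAA each in Ifnar1 and Ifnar2, a motif present in 8.3% of all windows. The PAR bZIP letters were in 1.06% of all windows, in 15 of the 227 windows touched by a peak, as that of Ifngr1 was (6.61%), and in 7 of the 62 wholly under one (11.3%). The C/EBP letters TTGCNNAA were in 10.8% of all windows, in 69 of those 227 (30.4%) and in 28 of those 62 (45.2%). The 400 bases of the 8 peaks themselves were not read.

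The other peaks around Ifngr1 flanked the gene on both sides. Upstream, 1 peak (chr10:19559764-19560163) was centred 32.0 kb from the start. A farther one (chr10:19506505-19506904) was centred 85.2 kb away, inside the noncoding RNA gene Gm33104 and 0.614 kb from its end. These lie in a gene-poor stretch, since the next coding gene on that side, Olig3, ends 233 kb before Ifngr1. Downstream, a close pair (chr10:19613474-19613873 and chr10:19614381-19614780) was centred 3.44 and 4.35 kb past the end of Ifngr1. The pair stood 0.907 kb apart, and 0.734% of the 3133 neighbouring peak pairs in the list were within 1 kb.

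The sixth peak in the Ifngr1 window (chr10:19691847-19692246) lay 81.8 kb past the gene. It was closer to Il20ra, which encodes a chain of the receptors for IL-20 family cytokines, at 19.6 kb, and it fell inside the noncoding RNA gene Gm33332. Between these 2 receptor genes lies Il22ra2, which encodes a soluble decoy receptor for IL-22. Il22ra2 had no peak inside, and the nearer of the downstream pair was 7.45 kb from it. Beyond the distance limit, the next peak upstream of Ifngr1 was 151 kb from it and nearer to Olig3.

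**Figure D1:**
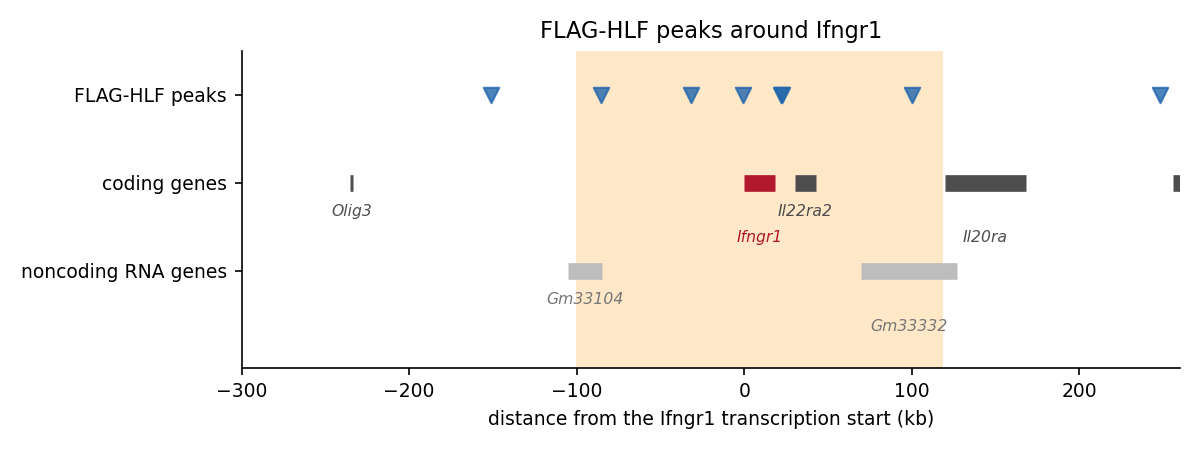
Positions of FLAG-HLF peaks (triangles), coding genes and noncoding RNA genes (bars) around Ifngr1, in kb from its transcription start. The shaded stretch is the gene (red) and 100 kb on each side. It holds 6 peaks, 2 of which nearly coincide just past the gene, and the red bar itself holds none.

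All 6 peaks around Ifngr1 lay outside coding genes. Of all 3153 peaks, 55.2% were inside a coding gene. Ifngr1 is short, and the gene takes up 8.37% of its own window. The 6 centres spanned 185 kb, with successive spacings of 53.3, 31.6, 22.2, 0.907 and 77.5 kb, against a median of 268 kb between neighbouring peaks over the genome. Each of the 6 had 6 other peaks within 200 kb, whereas the median peak had 1. Since the 6 lie within 185 kb, those others are mostly one another. Over the whole list, 3.27% of peaks had 5 or more other peaks within 200 kb. Of the 3053 runs of 6 successive peaks in the list, 0.491% were as short as the run at Ifngr1, and these fell at 7 separate places. Ifngr1 was chosen for its number of peaks, which favours crowded places. The spacings and crowding are therefore a description only, and nothing is read from their rarity.

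Counted per gene, 0.0868% of the 21887 coding genes (19 genes, at 9 separate places because neighbours share peaks) had 6 or more peaks inside or within 100 kb. When each peak was given to the nearest coding gene end within 100 kb, Ifngr1 received 5 peaks, and 0.0228% of coding genes received 5 or more. Ifngr1 was chosen for this count, so nothing is read from that rank. The stretch of genome nearer to Ifngr1 than to another coding gene, within the same limit, was 124 kb, and 21.3% of coding genes had a stretch at least that long. Its 5 peaks came to 4.03 per 100 kb of that stretch, against 0.17 per 100 kb over the stretches of all coding genes. This density uses the count for which Ifngr1 was chosen, so it is a description only.

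**Figure D2:**
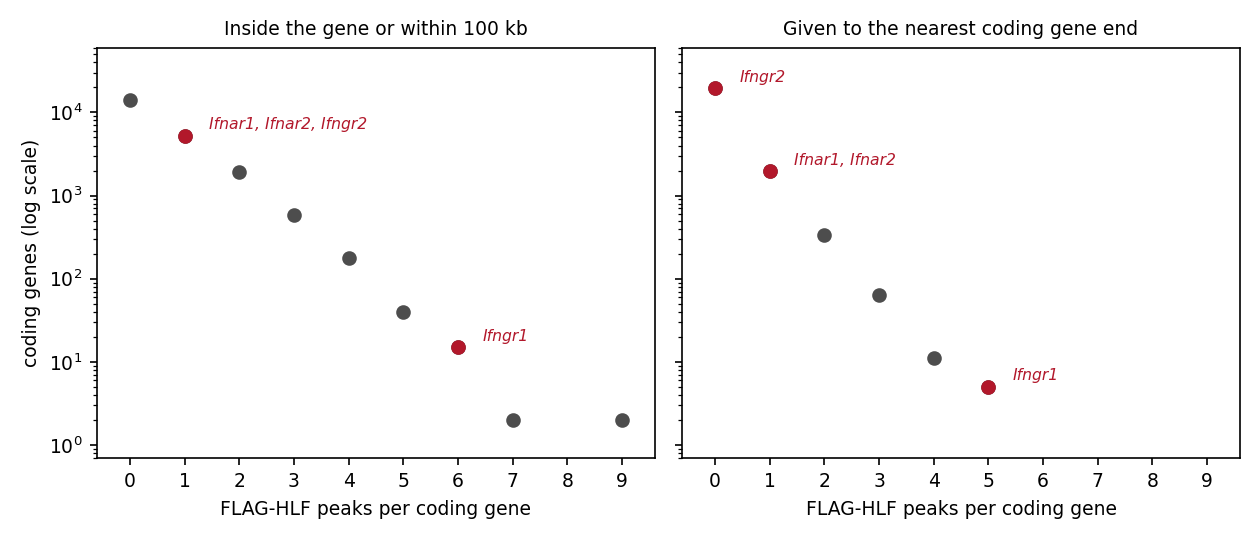
Number of coding genes (log axis) by how many FLAG-HLF peaks each had, counted inside the gene or within 100 kb (left) or given to the nearest coding gene end (right). Red points are the counts at which the named receptor genes fall, with Ifngr1 at 6 and 5 peaks and the other receptor genes at 1 or 0.

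The 4 other genes had the same number of peaks by nearest end, the measure of likeness used here over the 1 library. They were Asph, Gab2, an adaptor downstream of cytokine receptors, M1ap, and Trib1, a pseudokinase that targets C/EBP alpha for destruction. Their peaks were placed differently. M1ap had all 5 of its peaks inside the gene, Gab2 had 4 of 5, Trib1 had 3 and Asph had 2, while Ifngr1 had 0. These genes differ in length, from 8.45 kb for Trib1 and 18.3 kb for Ifngr1 to 227 kb for Gab2. Per 100 kb of nearest stretch, Ifngr1 (4.03 peaks) stood between M1ap (5.73) and Trib1 (3.79), above Gab2 (2.4) and Asph (1.73). A gene with several peaks and none inside was not unique to Ifngr1. Of the 80 coding genes with 3 or more peaks, 18 (22.5%) had none inside.

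The other receptor genes lie together on chromosome 16, in the order Ifnar2, Il10rb, Ifnar1 and Ifngr2, where Il10rb encodes a chain shared by the IL-10 and IL-22 receptors. This block of 191 kb had 1 peak between its outer ends and 2 with 100 kb added on each side, and none of its 4 genes held a peak. Ifnar2 (91372783 to 91405589) had 1 peak (chr16:91354625-91355024), centred 18.0 kb upstream of its start. Ifnar1 (91485032 to 91510523) and Ifngr2 (91547059 to 91564007) shared 1 peak (chr16:91522516-91522915) in the gap between them. Its centre was 12.2 kb past the end of Ifnar1 and 24.3 kb upstream of the start of Ifngr2. By nearest coding gene end the shared peak went to Ifnar1, so Ifngr2 had 0 peaks and Ifnar1 and Ifnar2 had 1 each.

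The 2 peaks of this block stood 168 kb apart, and both were outside coding genes. The microRNA gene Mir6367 lay 4.73 kb from the shared peak, and the pseudogene Gm24695 lay 5.04 kb from the Ifnar2 peak. Il10rb had no peak inside, and its closest was 51.3 kb from an end. The next peak to the right was 115 kb beyond Ifngr2, outside the limit, and inside Son and Donson, where Son encodes an RNA-splicing cofactor. Son was given that peak by nearest end, and the coding neighbours Tmem50b, Dnajc28, Gart and Gm36712, which lie between Ifngr2 and it or inside it, had 0. A single peak in such a window was common, since 36.3% of coding genes had 1 or more inside or within 100 kb.

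**Figure D3:**
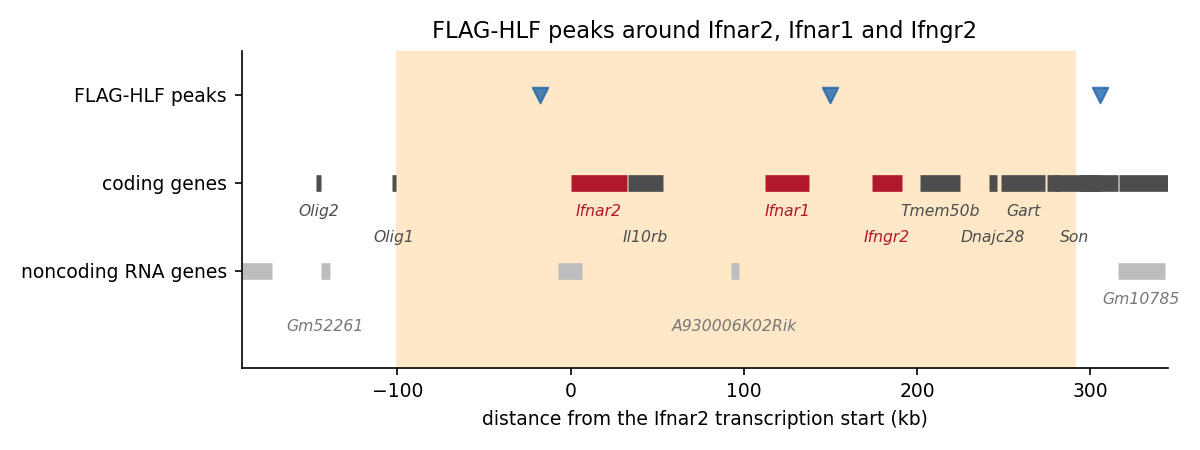
Positions of FLAG-HLF peaks (triangles), coding genes and noncoding RNA genes (bars) around Ifnar2, Ifnar1 and Ifngr2 (red), in kb from the Ifnar2 transcription start; some crowded gene names at the right are left out. The shaded stretch joins the genes and 100 kb on each side and holds 2 peaks, 1 before Ifnar2 and 1 between Ifnar1 and Ifngr2.

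The receptor genes of chromosome 10, Ifngr1, Il22ra2 and Il20ra, form a block of similar size (168 kb). It had 3 peaks between its outer ends and 7 with 100 kb added, or 1.9 per 100 kb, against 0.511 per 100 kb for the chromosome 16 block. As on chromosome 16, no receptor gene of the block held a peak, which 6.83% of all coding genes did. The difference between the blocks was not tested, since each is 1 place in 1 library. Ifngr1 was also chosen for its number of peaks, and most peaks counted for the chromosome 10 block lay in its window. This difference, and that between the receptor chains below, is therefore a description only. For the 2 chains of the interferon gamma receptor the counts were 6 peaks in the window of Ifngr1 (2.75 per 100 kb) and 1 in that of Ifngr2 (0.461 per 100 kb). The 2 type I receptor chains had 1 each, at 0.443 per 100 kb for Ifnar1 and 0.43 for Ifnar2. Counted per window and not per 100 kb, the mean across all coding genes was 0.539 peaks and the median 0. In that unit Ifngr2, Ifnar1 and Ifnar2 had 1 each.

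The rest of the class II cytokine receptor family, the structural relatives of the interferon receptor chains, was near the share of all coding genes by nearest end. Of the 8 members other than the 4 interferon receptor genes, Il20ra alone was given a peak this way (12.5%), against 10.8% of all coding genes. Counted inside or within 100 kb, 5 of the 8 had a peak (62.5%), against 36.3%. They were Il22ra2 with 5, Il20ra with 4, Il10ra and Il10rb with 2 each and F3, the tissue factor gene, with 1. The windows of Il22ra2, Il20ra and Il10rb overlap those of the interferon receptor genes beside them. All peaks counted for Il22ra2 and Il10rb, and most of those for Il20ra, were among the 8 peaks around the interferon receptor genes. The peak given to Il20ra by nearest end also lay in the Ifngr1 window. The 62.5% therefore rests in part on peaks around the selected genes. Ifnlr1, the receptor for type III interferons, had its closest peak 190 kb away, and Il10ra, the IL-10 binding chain, had one at 25.4 kb that belonged to another gene. Il20rb was 894 kb from any peak.

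The kinases and STAT factors that act directly below these receptors were listed together with Irf9, an interferon regulatory factor gene. In this list 3 of 7 genes had a peak by nearest end (42.9%, against 10.8% of all coding genes). Each of these peaks was inside its gene, as were 51.8% of all peaks given to a coding gene by nearest end. Counted by gene, 3 of the 7 held a peak, against 6.83% of all coding genes. Tyk2, the kinase bound to IFNAR1, had its peak 2.28 kb after the start. Jak2, the kinase bound to IFNGR2, had 1 at 19.5 kb. Stat3 had 1 at 1.16 kb. Jak1, the kinase shared by IFNGR1 and IFNAR2, was 310 kb from its closest peak. Stat2, a factor of type I interferon signalling, was 207 kb away. Irf9, a partner of STAT2, had 3 peaks within 100 kb, all nearer to other coding genes, the closest at 24.9 kb. By that wider count 36.3% of all coding genes had 1 or more.

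The list of interferon regulatory factors held 8 genes, without Irf9, which was listed with the kinases and STAT factors. So 12.5% of the list had a peak by nearest end, near the 10.8% of all coding genes. Irf2, which encodes a repressor of interferon-induced genes, had 3 peaks by nearest end and the other 7 had 0. The first was centred 0.191 kb before the start (chr8:46739355-46739754), and the others were inside the gene, at 25.4 and 71.7 kb. Of the 8 negative regulators, 4 were given peaks by nearest end (50%, against the same 10.8%), at 7.0 to 97.0 kb from a gene end. All of these peaks lay outside the genes, while 51.8% of all peaks given this way were inside their gene. Ptpn11, which encodes the phosphatase SHP2, had 2, centred 7.0 and 51.8 kb past its end. Socs3, an inhibitor of JAK kinases, had 1 at 19.5 kb from an end. Pias1, an inhibitor of STAT factors, had 1 at 50.7 kb, and Ptpn1, another phosphatase gene, had 1 at 97.0 kb. Socs1, the SOCS gene best known in interferon gamma signalling, had its closest at 107 kb.

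Of the 8 ligand genes tested, Ifnb1, which encodes interferon beta, had 1 peak 14.8 kb upstream, and Ifng, the ligand of IFNGR1, was 320 kb from any. Of 20 interferon-induced genes, 3 had a peak by nearest end. These shares, 12.5% of the ligand genes and 15% of the induced genes, were near the 10.8% of all coding genes. Gbp3, a guanylate-binding protein gene, had 1 at its start (chr3:142559883-142560282, centre 0.038 kb downstream of a start site). Rsad2, which encodes viperin, had 1 at 3.86 kb upstream, and Ciita, the regulator of MHC class II genes, had 1 inside at 22.0 kb from an end. Ly6a, which encodes Sca-1, had none by nearest end. Within 100 kb it had 3 peaks, all nearer to other coding genes, the closest 63.9 kb away. By that wider count 36.3% of all coding genes had 1 or more. Gbp3 and Irf2 were, with Ifngr1, the pathway genes whose promoter window a peak touched. Their windows are given, for Gbp3 the first of 2 start sites, with the bases under the peak in capitals, to set beside that of Ifngr1.

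Irf2 (chr8:46739495-46739794, plus strand): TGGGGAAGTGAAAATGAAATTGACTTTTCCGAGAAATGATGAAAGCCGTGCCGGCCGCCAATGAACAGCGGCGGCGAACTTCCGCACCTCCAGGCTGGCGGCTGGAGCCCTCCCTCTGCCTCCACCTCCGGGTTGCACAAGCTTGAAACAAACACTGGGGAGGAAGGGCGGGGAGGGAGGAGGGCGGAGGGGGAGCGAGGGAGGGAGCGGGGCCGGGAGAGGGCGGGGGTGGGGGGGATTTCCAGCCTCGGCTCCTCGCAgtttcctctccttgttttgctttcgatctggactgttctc
Gbp3 (chr3:142559794-142560093, plus strand): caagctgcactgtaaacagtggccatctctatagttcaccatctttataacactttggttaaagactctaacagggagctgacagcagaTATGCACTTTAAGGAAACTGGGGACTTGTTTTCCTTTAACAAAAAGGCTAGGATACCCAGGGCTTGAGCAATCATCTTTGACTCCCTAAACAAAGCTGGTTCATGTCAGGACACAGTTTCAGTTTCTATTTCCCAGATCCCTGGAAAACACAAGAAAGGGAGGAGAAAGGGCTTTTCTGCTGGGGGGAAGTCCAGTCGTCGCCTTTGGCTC

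The peak covered 260 bases of the Irf2 window and 211 of the Gbp3 window, against 22 at Ifngr1. Neither held the PAR bZIP letters, and each held 1 match to TTGCNNAA, as ttgcacaa in Irf2 and ttgagcaa in Gbp3, both under the peak. TTTCNNTTT, in 10.6% of all windows, matched once in Irf2 and at 2 overlapping places in Gbp3. TTCNNNGAA matched once in Irf2 and not in this Gbp3 window. The window of the other Gbp3 start site (chr3:142560106-142560405) had 177 bases under the same peak and held no match to any of these motifs.

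Over the 6 pathway lists together, 16 of the 63 genes found in the table had a peak by nearest coding gene end (25.4%), against 10.8% of all coding genes. Without the 4 receptor genes the count was 13 of 59 (22.0%), which keeps Il20ra, whose peak also lay in the Ifngr1 window. When noncoding genes and pseudogenes also competed for each peak, 9 of 63 had one (14.3%), against 7.27% of coding genes. By the wider count of any peak inside or within 100 kb, 32 of 63 had one (50.8%), against 36.3%. These lists were drawn up with results of the same data known, and no test was made of them. Of the 23 peaks given to the lists by nearest end, Ifngr1 received 5, the count it was chosen for, and Irf2 followed with 3.

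**Figure D4:**
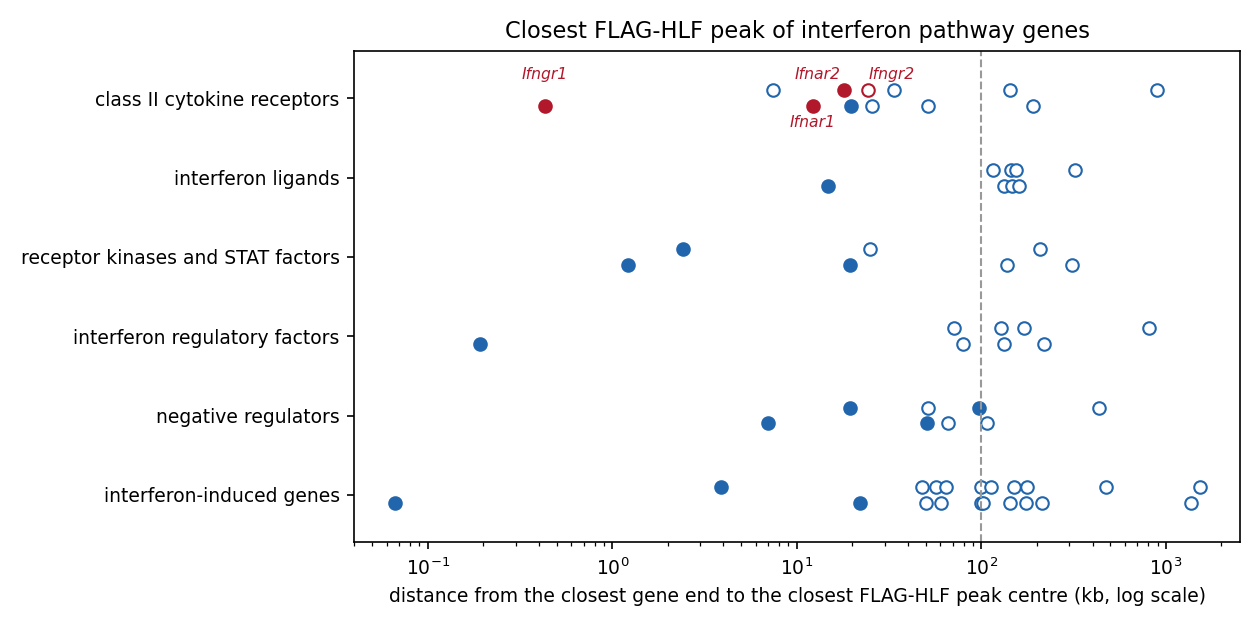
Distance in kb (log axis) from the closest end of each pathway gene to the closest FLAG-HLF peak centre, 1 point per gene, in 6 lists; the dashed line is the 100 kb limit. Filled points were given at least 1 peak by nearest coding gene end, red marks the 4 receptor genes, and Ifngr1 (0.429 kb) lies well to the left of the other receptor genes (12.2 to 24.3 kb).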

How the data were processed

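Positions of FLAG-HLF peaks in LSK cells were taken from the deposited list of the FLAG-HLF library. Its columns are chromosome, start and end, in mm10 (GRCm38) per the submitters' processing notes, which name Bowtie2, bedtools and MACS2 without role or version. The deposited intervals are all 400 bases wide and carry no other value, so a peak's strength is unknown. Not given in the sources used here are: threshold, filters, the step that set the width and any use of the GFP library. Starts were moved to count from 1, and the centre is the start in the file plus 200 bases. Genes came from RefSeq GRCm38.p6 (21887 coding genes on assembled chromosomes, 49943 genes in all), and start sites and promoter windows from a RefSeq table that covers 79.9% of the coding genes. Distances were counted to both gene ends, and a peak was given to the nearest coding gene end within 100 kb. Motifs were searched on both strands. Of 65 pathway genes, 63 matched a coding gene by symbol, and Mx1 and Mx2 did not. The value of 1 gene among the kinases and STAT factors is not reported here. The genes and lists were chosen with earlier results of these data known. Named are the 4 receptor genes, coding neighbours, pathway genes with a peak, and genes with as many peaks as Ifngr1; other pathway genes and noncoding neighbours named without a peak were added after their values were seen. The counting code was checked on planted peaks. Python 3.11.15, numpy 2.4.6, pandas 2.3.3 and matplotlib 3.10.9 were used.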

Additional observations from a re-analysis of the deposited data

How the results depend on the processing

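Counts were repeated with distance limits of 50 and 200 kb, with peaks counted by any base, with noncoding genes in the assignment, with a peak given first to the gene that holds it, and with the first 1576 lines of the file only. Of 23 alternative values for 5 counts, 20 stayed within 1.5 times the value reported. The Ifngr1 window count was right at that bound under 2 settings. It fell from 6 to 4 at 50 kb and in the first 1576 lines. In the first 1576 lines Ifngr1 had 3 peaks by nearest end in place of 5. With noncoding genes and pseudogenes in the assignment the chromosome 16 receptor genes had 0 in place of 2, since Mir6367 and Gm24695 were nearer, and 9 pathway genes had a peak in place of 16. Assignment by transcription start alone was not run, because the start table lacks Il22ra2, Il10rb and other coding genes. A stricter peak threshold could not be tried on a list without scores. No paired analysis was possible because there is 1 library and no test.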

Other observations

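The order of lines in the deposited list is not explained in the sources used here. The peak between Ifnar1 and Ifngr2 is line 73 and the Ifnar2 peak line 151 of 3153. The peak before the Ifngr1 start is line 688, the others around Ifngr1 are lines 775, 987, 1079, 2422 and 2789, and the downstream pair, 0.907 kb apart, is lines 987 and 2422. Of the 8 peaks, 6 are in the first 1576 lines.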
